A study of Mus musculus with 2 samples.

Results

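The Reg (regenerating islet-derived) genes are a family of 7 mouse genes on these arrays, out of 27573 gene names that carried a probe: Reg1, Reg2, Reg3a, Reg3b (listed under its older name Pap), Reg3d, Reg3g and Reg4. They were chosen as a family by name, with their ratios on these arrays already known, so their ratios are described here without a test. Each gene had 1 probe. Probes for Reg1, Reg2, Reg3a, Reg3b and Reg3d, 5 genes, were well above background in both channels of both arrays, and 2 genes, Reg3g and Reg4, were not.

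Reg proteins are small secreted proteins built around a single C-type lectin domain. In the mouse, acinar cells of the exocrine pancreas and epithelial cells of the gut are their best known sources, and they are known for rising sharply in the pancreas during inflammation and injury. Reg3 transcripts are classic targets of interleukin-6 family cytokines and interleukin-22, which act through the transcription factor STAT3, and the exostosin-like protein Extl3 has been described as a receptor for Reg proteins.

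RNA came from pancreatic lymph nodes of female NOD mice aged 16 weeks, a strain that develops autoimmune diabetes spontaneously. On each of 2 arrays, 1 hyperglycemic mouse with blood glucose above 500 mg/dl was labelled with Cy5 and set against Cy3-labelled RNA of a pool of 2 euglycemic mice with blood glucose below 200 mg/dl. Amplification started from 1 ug of total RNA. The labels describe 1 pool, without saying whether both arrays took a single preparation of it. The spread among euglycemic mice was not measured, and the hyperglycemic state and the Cy5 dye cannot be told apart. Mouse 1 was read on array 1 and mouse 2 on array 2, so a difference between the mice and a difference between the arrays cannot be told apart either.

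The node's own cell types were detected: in Cy3 on array 2, all 7 T cell, all 6 B cell and all 6 lymph node stroma markers were well above background. In Cy3 on array 1 these counts were 4 of 7, 5 of 6 and 4 of 6. In the dimmer Cy5 channel of array 2 they were 4 of 7, 4 of 6 and 4 of 6. Of all gene spots, 21.7% and 63.0% were well above background in Cy3 on arrays 1 and 2. In Cy5 the shares were 14.5% and 16.4%, and every marker count here is to be read beside these shares. Acinar transcripts were present in every channel. Of 6 acinar markers, 5 were well above background in each channel of array 1 and in Cy5 on array 2, and all 6 were in Cy3 on array 2. Their summed processed signal was 483832 and 809166 in the pool channel and 612226 and 932301 in the mouse channel of arrays 1 and 2. Of 11 islet markers, 1 and 5 were well above background in Cy3 on arrays 1 and 2, and 0 were in Cy5 on either array. Of 8 markers of intestinal epithelium, 2 and 5 were so in Cy3 and 1 was in Cy5 on each array, and Muc2, Cdx1 and Cdx2 never were. Of 7 duct markers 3 and 6 were so in Cy3, and 2, Krt8 and Krt18, in Cy5. The Cy5 channel was dim, with median spot signals of 37.7 and 38.2 over a background of 35. The Cy3 medians were 234 and 81.2.

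Of the 7 Reg genes, 6 lie in one cluster on chromosome 6. In build mm8, the build of the probe positions, their order was Reg3b (78302838 to 78302897), Reg3d (78305521 to 78305580), Reg3a (78313150 to 78313209), Reg2 (78337474 to 78337533), Reg1 (78358042 to 78358101) and Reg3g (78395935 to 78395994). The cluster spanned 93.2 kb, and no other gene's probe lay inside it or within 500 kb on either side. In the RefSeq annotation the neighbours interleaved with or flanking these genes are the pseudogenes Gm5576, Gm52853 and Gm6072. Reg4 lies apart on chromosome 3 (98318487 to 98321733). The Reg genes of the cluster are close paralogues, the probe sequences were not used here, and signal shared between paralogues was not tested.

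The 250 bases before the annotated start are shown for the 5 Reg genes with the highest deposited ratios in mouse 2. They were chosen because they were high together there. The sequences are from RefSeq, build GRCm38.p6, where all 7 genes were matched, and run in the direction of the gene. They lie at chr6:78370635-78370884 on the plus strand for Reg3b, chr6:78378866-78379115 on the minus strand for Reg3d, chr6:78380459-78380708 on the plus strand for Reg3a, chr6:78468875-78469124 on the minus strand for Reg3g and chr6:78404905-78405154 on the plus strand for Reg2. Capitals mark CACCTG, an E-box, and TTTCCC, a TC box, each on either strand. Both are parts of the site known for PTF1, the acinar transcription factor complex. Whether the spacing of the matches here is that of a PTF1 site was not tested.
Reg3b: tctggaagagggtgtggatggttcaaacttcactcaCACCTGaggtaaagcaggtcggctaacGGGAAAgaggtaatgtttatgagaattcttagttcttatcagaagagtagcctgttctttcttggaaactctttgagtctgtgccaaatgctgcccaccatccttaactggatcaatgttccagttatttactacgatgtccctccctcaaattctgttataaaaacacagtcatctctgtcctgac
Reg3d: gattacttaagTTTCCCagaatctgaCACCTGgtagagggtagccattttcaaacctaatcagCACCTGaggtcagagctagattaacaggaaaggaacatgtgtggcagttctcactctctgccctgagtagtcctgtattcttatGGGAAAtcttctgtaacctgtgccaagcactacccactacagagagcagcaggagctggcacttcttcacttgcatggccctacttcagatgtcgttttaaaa
Reg3a: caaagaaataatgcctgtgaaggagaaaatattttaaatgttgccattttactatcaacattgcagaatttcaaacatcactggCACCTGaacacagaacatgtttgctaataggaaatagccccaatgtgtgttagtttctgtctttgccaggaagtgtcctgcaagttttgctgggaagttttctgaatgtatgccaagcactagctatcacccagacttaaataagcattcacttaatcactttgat
Reg3g: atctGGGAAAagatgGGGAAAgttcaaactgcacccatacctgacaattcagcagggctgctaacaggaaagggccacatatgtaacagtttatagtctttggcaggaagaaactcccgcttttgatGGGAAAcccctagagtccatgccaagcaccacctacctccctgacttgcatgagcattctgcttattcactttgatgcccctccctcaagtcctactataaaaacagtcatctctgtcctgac
Reg2: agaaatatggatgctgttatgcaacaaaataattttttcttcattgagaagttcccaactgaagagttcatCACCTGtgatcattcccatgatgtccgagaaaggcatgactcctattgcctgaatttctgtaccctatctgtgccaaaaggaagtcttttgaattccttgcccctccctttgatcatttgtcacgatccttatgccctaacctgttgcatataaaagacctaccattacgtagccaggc

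The E-box CACCTG was found before 5 of the 7 genes, namely Reg2, Reg3a, Reg3b, Reg3d and Reg4, and before 17.2% of all 32851 promoters of the same length. TTTCCC was found before Reg1, Reg3b, Reg3d and Reg3g, 4 of 7, against 21.9% of promoters. Only Reg3b and Reg3d held both motifs, as 3.61% of promoters did. In Reg3b the first bases of the motifs lay 27 bases apart, and in Reg3d the nearest pair lay 15 bases apart. The STAT motif TTCNNNGAA was also found before Reg3b and Reg3d alone among the 7, at -129 and -238 from the start, against 7.02% of promoters. In Reg3d it overlapped the TC box at -239. Reg3b and Reg3g share the last 20 bases before the start letter for letter, the longest run shared by any pair of the family. The next longest shared runs had 12 bases, between Reg3a and Reg3d and between Reg3d and Reg3g. These matches are descriptions of the sequence, and none of them is a measured binding site.

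**Figure D1:**
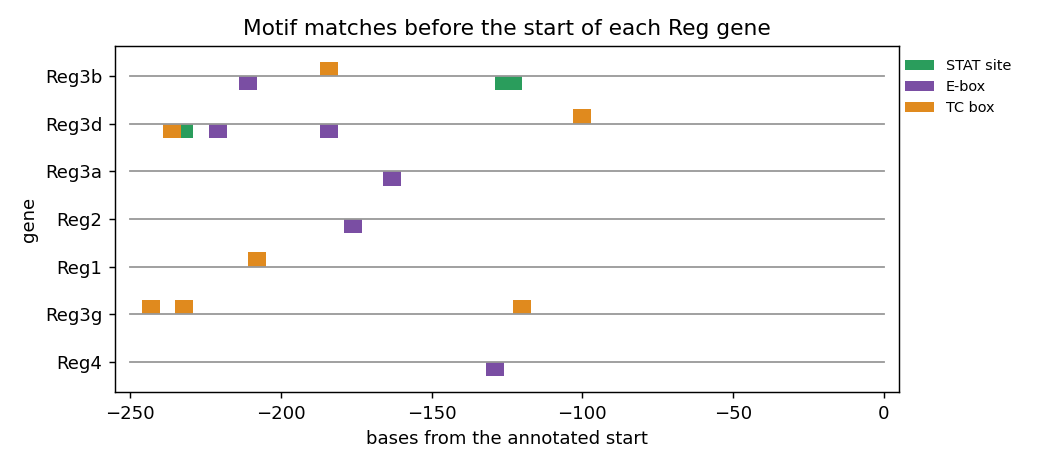
Motif matches in the 250 bases before the annotated start of each Reg gene (x axis, bases from the start), with plus-strand matches drawn below each line and minus-strand matches above it. Reg3b and Reg3d hold all 3 motifs, the E-box, the TC box and the STAT motif.

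The comparison asks which transcripts of the node change once NOD mice have become hyperglycemic. For the Reg genes the answer differed between the mice. In the deposited ratios of mouse 2 all 6 cluster genes were above the pool, by 2.53-fold for Reg1 up to 15.6-fold for Reg3b. The size of these folds depended on the processing, as given below. In mouse 1 the 5 genes with a usable reading lay between 1.73-fold below the pool (Reg3a) and 1.28-fold above it (Reg3b). In bulk tissue, more cells that express a gene and more RNA per cell cannot be told apart.

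Reg3b encodes the pancreatitis-associated protein, a secreted lectin that acinar cells make in quantity during pancreatitis. Its log2 ratio to the pool was 0.35 in mouse 1 and 3.97 in mouse 2, a mean of 2.16 ± 2.55 (SD, n = 2). Mouse 2 was 15.6-fold above the pool and mouse 1 1.28-fold above it. Reg3b had the highest ratio of all 4405 genes in mouse 2 and ranked 1492 in mouse 1.

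Reg3a is a second lectin of the same subgroup. It was at -0.79 in mouse 1 and 3.06 in mouse 2, a mean of 1.13 ± 2.72 (SD, n = 2). Mouse 2 was 8.33-fold above the pool and mouse 1 was 1.73-fold below it. Its rank by ratio was 4 in mouse 2 and 4056 of 4405 in mouse 1, near the bottom.

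Reg3d encodes a further lectin of the Reg3 subgroup. It was at -0.23 in mouse 1 and 2.06 in mouse 2, a mean of 0.91 ± 1.62 (SD, n = 2). Mouse 2 was 4.17-fold above the pool and mouse 1 1.17-fold below it. The genes Reg3b and Reg3d are neighbours in the cluster, and Reg3d had the smaller rise of the pair.

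Reg3g encodes a lectin known for killing Gram-positive bacteria at the gut surface. On array 2 it was well above background in both channels, at a log2 ratio of 3.03, 8.18-fold above the pool. On array 1 it was well above background in neither channel, and its deposited ratio of -1.17 rests on a substituted Cy5 value, so only 1 of 2 mice measured it and no mean is given.

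Reg1 and Reg2 encode the lithostathines, or pancreatic stone proteins, abundant constituents of normal pancreatic juice. Reg2 was at -0.45 in mouse 1 and 2.26 in mouse 2, a mean of 0.91 ± 1.92 (SD, n = 2), and was 4.80-fold above the pool in mouse 2. Reg1 was at -0.04 in mouse 1 and 1.34 in mouse 2, a mean of 0.65 ± 0.98 (SD, n = 2), and was 2.53-fold above the pool in mouse 2. In the deposited ratios of mouse 2 both lithostathines were below Reg3a, Reg3b and Reg3g, and Reg3d, at 2.06, lay between Reg1 and Reg2. This order depended on the processing. With normexp (offset 50) and loess, Reg1 at 3.82 and Reg2 at 4.57 were above Reg3a at 3.14 in mouse 2.

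Reg4, a family member of the gut outside the cluster, was not well above background in any channel. Its spot signals were 53.7 and 51.6 in Cy3 and 37.5 and 35.2 in Cy5 on arrays 1 and 2. The deposited ratio of 0 on both arrays is a substituted value, and no fold is given.

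**Figure D2:**
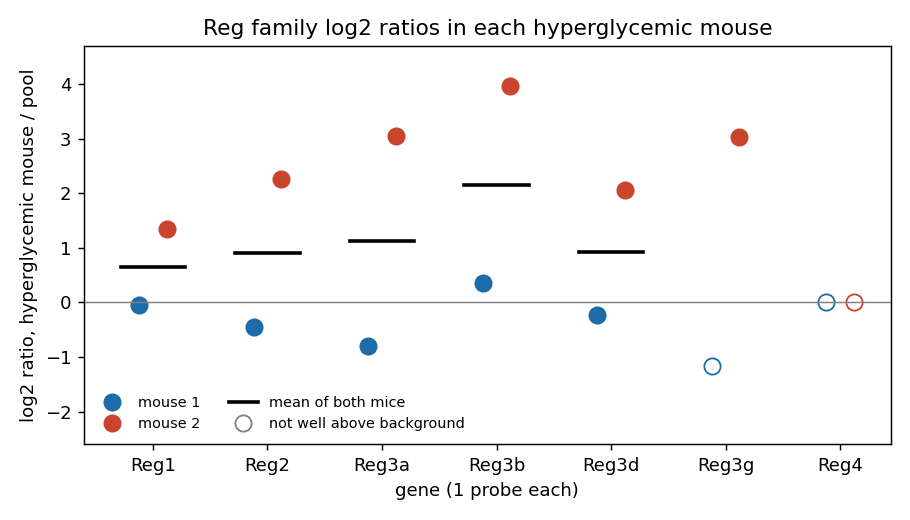
Log2 ratio of each hyperglycemic mouse to the euglycemic pool (y axis) for the 7 Reg genes, 1 probe each, with points for the mice and lines for the mean of both where both were measured. Filled points of mouse 2 run from 1.34 to 3.97 and those of mouse 1 from -0.79 to 0.35, and open points were not well above background.

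For each of the 5 measured genes the ratio was higher in mouse 2 than in mouse 1. Mouse 2 was 14.4-fold above mouse 1 for Reg3a, 12.2-fold for Reg3b, 6.54-fold for Reg2, 4.90-fold for Reg3d and 2.61-fold for Reg1. On the log2 scale these differences were 3.85, 3.61, 2.71, 2.29 and 1.38. Over all 4405 genes the same difference had a median of -0.07 and an SD of 0.41, and 0.999% of genes (44) exceeded 1. All 5 Reg genes did, which the choice of the family with these ratios in view fixes in part, so nothing is read from the count. By rank, Reg3a, Reg3b and Reg2 held places 1, 2 and 3, Reg3d place 6 and Reg1 place 13. Reg3a and Reg3b stood clear of the largest difference outside the family, 2.52 for Cwc15. Mouse 1 was below the pool for 4 of the 5 genes, against 44.1% of all genes. In mouse 2 all 5 had a deposited log2 ratio above 1, against 7.95% of all genes. With normexp values centred on the median, Reg1 was at 0.39 and Reg3d at 0.47 in mouse 2. The choice of the family bears on both of these counts too, and nothing is read from them.

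**Figure D3:**
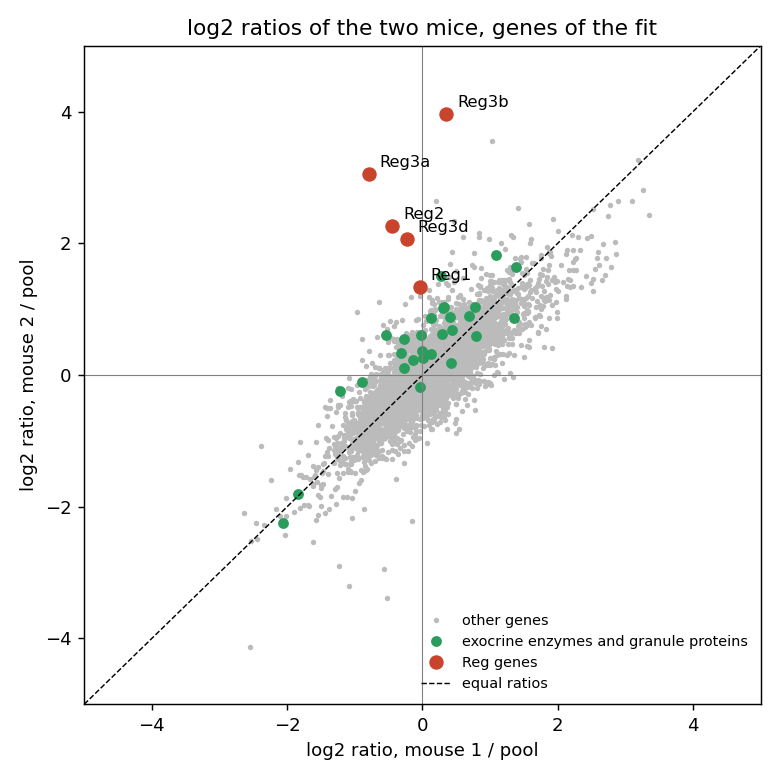
Log2 ratio to the pool in mouse 1 (x axis) and mouse 2 (y axis) for the 4405 genes that passed the background filter in all readings, with Reg genes in red, exocrine enzymes and granule proteins in green and the dashed line at equal ratios. The 5 Reg genes lie above the line by 1.38 to 3.85, while the exocrine genes lie within -0.50 to 1.22 of it.

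The difference was also visible in the spot signals before any normalization. Reg3a read 66.5 in mouse 1 and 714 in mouse 2 in Cy5, over local backgrounds of 32 and 33. Reg3b read 273 and 3170, and Reg3d read 120 and 726. After the local background was subtracted, array 2 exceeded array 1 in Cy5 by 19.8-fold for Reg3a, 13.3-fold for Reg3b and 8.17-fold for Reg3d. Those were the 3 highest values among 4403 genes, whose median was 1.22. Mouse 1's Reg3a spot stood only 34.5 above its background, so its ratio is the least precise of the 5.

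For the lithostathines the mouse channel moved less than for these Reg3 genes. Reg2 read 1428 and 4400 in Cy5, a net rise of 3.14-fold (rank 22), and Reg1 read 1786 and 4060, a net rise of 2.29-fold (rank 123). In Cy3 the pool gave 102378 and 22792 for Reg2 and 102817 and 40465 for Reg1. The net Cy3 signal was thus 4.50-fold and 2.54-fold higher on array 1, and that of Reg3b 2.67-fold, against a median of 1.77 over all genes. Reg2's change was the 11th largest fall of 4403. The labels name 1 pool for both arrays but do not say whether it was labelled once or separately for each, so the source of this Cy3 difference was not tested. After the scanner's normalization, Reg2 rose by 1.90 in Cy5 and fell by 0.81 in Cy3 on the log2 scale, and Reg3a rose by 4.60 in Cy5 and 0.75 in Cy3. The medians of all genes were 0.59 and 0.65.

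**Figure D4:**
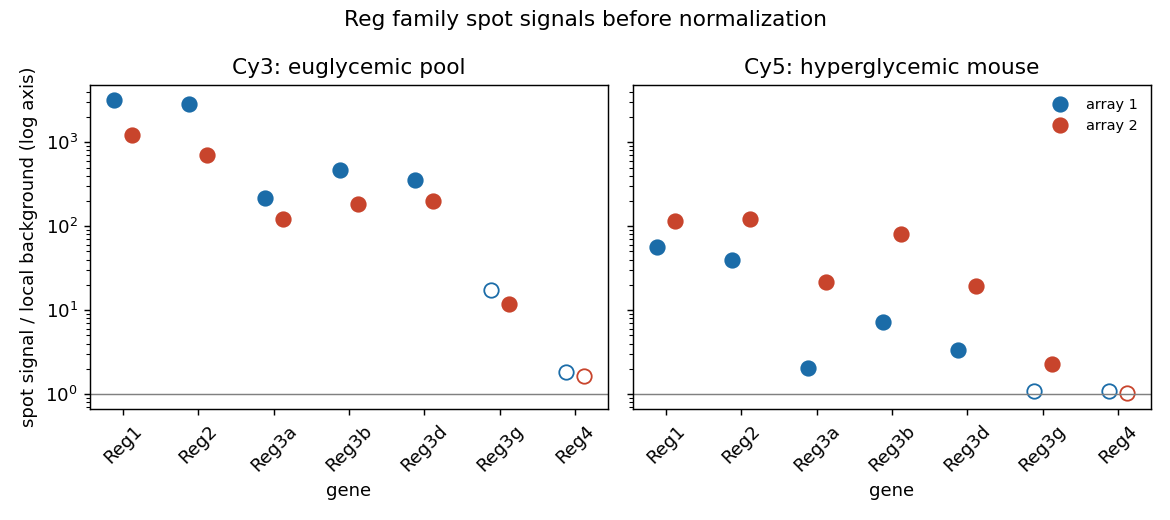
Spot signal over local background (y axis, log scale) of each Reg gene on array 1 and array 2, in the Cy3 channel of the pool (left) and the Cy5 channel of the mouse (right), with open points not well above background. The Cy5 points of Reg3a, Reg3b and Reg3d are far higher on array 2, while the Cy3 points of every gene of the cluster are higher on array 1.

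The differences of Reg1 and Reg2 depended on the processing. With normexp correction of the scanner signals and loess together, Reg1 turned to -0.35 (offset 50) and -0.66 (offset 10). Reg2 fell to 0.89 and 0.67 with these offsets. With normexp values (offset 50) centred on the median, Reg1 was at 1.79 and Reg2 at 3.05. With loess but no background correction they were at 1.87 and 3.04. Reg3a stayed between 2.95 and 3.90, Reg3b between 3.37 and 4.58 and Reg3d between 2.29 and 2.81 under the 10 alternatives tried. Several of these could not change the values. Both wider filters, the deposited value table and the mean of a gene's probes left these single-probe genes as they were. Centring the deposited ratios on the median shifted all genes alike. The level of mouse 1 against the pool was less settled than the difference between the mice. Reg1 in mouse 1 was at 4.17 and Reg2 at 3.69 with normexp (offset 50) and loess. The level of mouse 2 moved too. With normexp values centred on the median it was 0.39 for Reg1, 1.33 for Reg2, 1.32 for Reg3a, 2.74 for Reg3b and 0.47 for Reg3d. With normexp (offset 50) and loess it was 3.82, 4.57, 3.14, 5.35 and 2.54 in the same order. Each stayed above the pool in both settings.

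**Figure D5:**
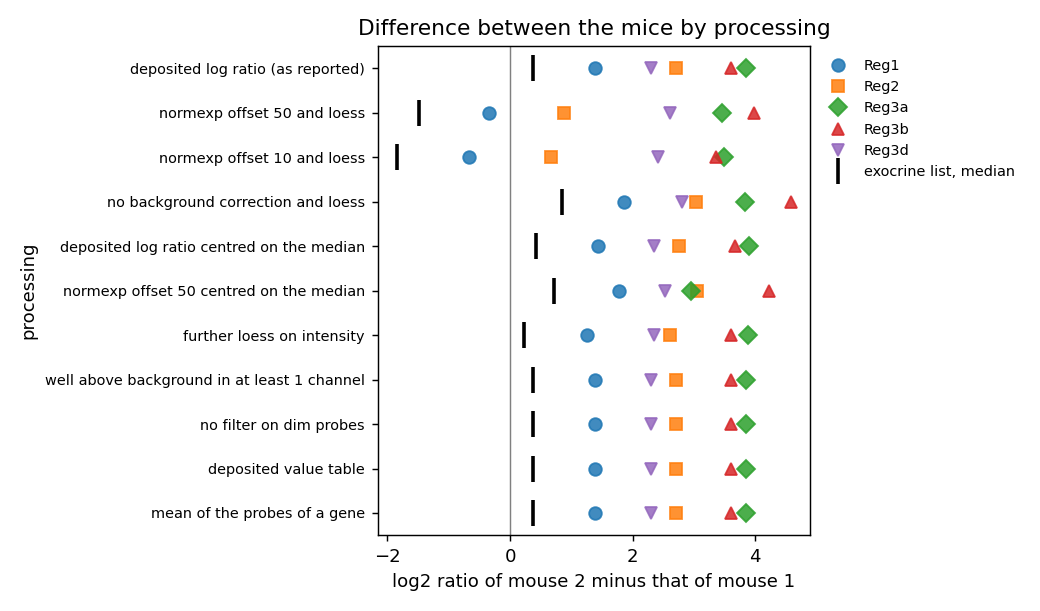
Log2 ratio of mouse 2 minus that of mouse 1 (x axis) for 5 Reg genes and the median of the exocrine list (bars), under each way of processing (y axis). Reg3a, Reg3b and Reg3d stay at 2.29 or more throughout, and Reg1 falls below 0 with normexp and loess.

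Digestive enzymes and other granule proteins are made by the same acinar cells, and are given here beside the Reg genes. The 28 genes of this list differed by a median of 0.37 between mouse 2 and mouse 1, with a range from -0.50 to 1.22. Of these, 23 of 28 were higher in mouse 2, beside a median difference of -0.07 over all genes. Carboxypeptidase Cpb1 at 1.22 and the serpin Serpini2 at 1.15 were the only 2 above 1. With normexp and loess the list's median difference turned to -1.49 (offset 50) and -1.84 (offset 10). Against the pool, 11 of 28 were called higher and 3 lower by limma at an adjusted p under 0.05, against 25.4% and 18.2% of all 4405 genes. Trypsin Try5 was at 1.51 ± 0.18 (limma adjusted p = 0.000926). Amylases Amy2a5 and Amy1 were at -2.15 ± 0.13 and -1.82 ± 0.02 (limma adjusted p = 0.000442 and 0.000575), but turned to 1.44 and 2.01 with normexp (offset 50) and loess. The list's median was 0.30, against 0.07 for all genes, and it ranged from -0.60 with normexp values centred on the median to 4.54 with normexp (offset 50) and loess. It was 2.99 with normexp (offset 10) and loess and 2.85 without background correction. Of 9 acinar transcription factors 2 could be measured, and Bhlha15, the granule-maturation factor Mist1, fell to -0.75 ± 0.18 (limma adjusted p = 0.00905) while Rbpjl, a PTF1 subunit, was at -0.06. When dim probes were let into the fit of the deposited ratios, limma called 0 genes in any list. Calls on those ratios, here and in the next paragraphs, thus depended on leaving dim probes out. The fits with normexp or without background correction took in 7296 genes against 4405, and still called some. Of the exocrine list, 24 were higher with normexp (offset 50) and loess and 22 without background correction.

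On the receptor side, Extl3 fell in both mice, at -0.81 and -0.68, a mean of -0.75 ± 0.09 (SD, n = 2; limma adjusted p = 0.00819). It was below the pool under all 11 alternatives, from -0.91 to -0.26, though some of these cannot change the ratio. It was not called in 4 of them, both normexp and loess settings and both wider filters. The related exostosin Ext2 was at 0.03 and was not called, and the other 3 of the 5 listed genes were too dim.

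The cytokines known to induce Reg genes could not be followed. Of 8 ligands on the array, none entered the fit: Il6, Il17a and Il11 were never well above background, and Il22, Il10, Osm, Ifng and Tnf were so in the pool channel of array 2 alone. In that channel 63.0% of all gene spots were well above background, against 21.7% in the pool channel of array 1. Among 10 receptor genes 6 were measured, of which 1 rose and 2 fell, beside 25.4% and 18.2% of all genes. Counts this small do not set the list apart from all genes. Il17rc, a subunit of the interleukin-17 receptor, was at 0.79 ± 0.43 (limma adjusted p = 0.0137). The interleukin-10 receptor chains Il10ra, at -0.73 ± 0.26, and Il10rb, which also serves interleukin-22, at -0.67 ± 0.22, fell (limma adjusted p = 0.0115 and 0.0149). Il6st, the shared gp130 subunit, was at -0.30 ± 0.05 and was not called.

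Of 10 JAK-STAT3 genes 8 were measured, of which 1 rose and 4 fell, beside 25.4% and 18.2% of all genes. All 4 measured T cell markers fell too, with a median of -1.52. Cd3g was at -1.86 ± 0.15 and Cd8a at -1.83 ± 0.22 (limma adjusted p = 0.00058 and 0.000685). Other leukocyte markers were mixed. Of 4 measured B cell markers 2 fell and 1 rose. Of 5 measured macrophage markers 1 fell and 1 rose, with a median of 0.27. The T cell markers' summed processed signal was 12487 and 19492 in Cy3 and 4776 and 8574 in Cy5 on arrays 1 and 2, and their part in the lower values of signalling genes and receptors was not tested. Stat3 itself was at 0.18 in mouse 1 and -0.08 in mouse 2. The kinase Jak2 was at 0.70 ± 0.16 (limma adjusted p = 0.0111), though at -0.26 with normexp values centred on the median. Socs1, Stat5b and Socs3 were among those that fell, at -0.60, -0.57 and -0.48.

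Other known STAT3 and acute-phase targets are given for comparison. Of 14 listed genes 7 were measured, and 0 of 7 had a higher ratio in mouse 2 than in mouse 1. Over all 4405 genes the median difference was -0.07, so most genes were lower in mouse 2 too. With so few genes, nothing is read from the count. Against the pool 0 rose and 4 fell, beside 25.4% and 18.2% of all genes, and the T cell markers named above fell with them. Haptoglobin, Hp, was at -1.44 in mouse 1 and -2.09 in mouse 2, a mean of -1.76 ± 0.46 (SD, n = 2; limma adjusted p = 0.00104). Bcl3, Mcl1 and Socs3 were at -0.78, -0.62 and -0.48, each called lower. The probes of Mcl1 differed, and with the mean of its probes it was at -0.32 and was not called.

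Other genes with a C-type lectin domain, the fold that defines Reg proteins, were mostly too dim. Of 30 on the array 6 were measured, with 1 called higher, 1 lower and 4 not called, beside 25.4% and 18.2% of all genes. Cd209b was at 1.03 ± 0.25 (limma adjusted p = 0.00335), though at -0.62 with normexp values centred on the median, and Clec2d was at -2.36 ± 0.39 (limma adjusted p = 0.000507). Their ratios in mouse 2 exceeded those in mouse 1 for 2 of 6, beside a median difference of -0.07 over all genes.

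Reg1 had the highest mean signal of the family, and the 5 genes closest to its pair of ratios over the 2 arrays were Cisd1, Rbm18, Sys1, Ctla2a and Acss1, at Euclidean distances of 0.13 to 0.27 on the log2 scale. Cisd1, the nearest, was at -0.04 in mouse 1 and 1.21 in mouse 2, beside -0.04 and 1.34 for Reg1.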

How the data were processed

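RNA of pancreatic lymph nodes from 2 hyperglycemic mice was measured on 2-colour Agilent arrays, each against a euglycemic pool that the labels describe as 1 pool, with its preparation for each array not given in the sources used here. Per the file headers, Agilent Feature Extraction 10.7.3.1 quantified the spots. The deposited spot and background columns are scanner intensity. Per the file headers, the processed intensity was background-subtracted, given a substitute value where not above background, and dye-normalized. The authors' log ratio is log10 of Cy5 over Cy3 and was divided by log10 of 2 here. The deposited value table holds the same ratios as log2 values for 5098 probes, and how those probes were chosen is not given in the sources used here. It had 0 columns of no sample.

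Control spots were left out, and so were the gene spots flagged as outliers (338 on array 1 and 184 on array 2). Probes were kept where Cy3 and Cy5 were both well above background on each array, and a gene took its brightest probe. The fits with normexp or without background correction had a wider filter, with 7296 genes. Of 41174 probes, 8148 had no match in the RefSeq gene table and kept the file's name. limma 3.58.1 in R 4.3.3 tested each mean log2 ratio against 0, two-sided, with 1 residual degree of freedom, and was tested on simulated data. Benjamini-Hochberg adjustment (threshold 0.05) ran over the 5071 probes kept, before the brightest probe of each of 4405 genes was taken. Nothing in the labels says more of the replicates than that they are separate mice. The p-values use a variance that limma moderates over all genes, so they do not follow a gene's SD alone. Amy1, with an SD of 0.02, had a standard error of 0.15, and Il17rc, with an SD of 0.43, had 0.19. The spread of the control mice does not enter the p-values. The number of arrays limits the precision.

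The Reg genes, the gene and marker lists and the rule for named genes were chosen with earlier results of these data known. The rule named all Reg genes, up to 4 called members of each list with the largest ratios in one direction in both mice, and the 5 genes nearest to the brightest Reg gene. Results of 2 genes it named are not reported here. Other genes named with values were chosen after their values were seen. Protein and probe sequences were not used here. Tables and figures were made with Python 3.11.15, pandas 2.3.3 and matplotlib 3.10.9.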

Additional observations from a re-analysis of the deposited data

How the results depend on the processing

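No paired analysis was possible because there is 1 group of samples, and 1 pool served as the control of both arrays. The median ratio of the 5 measured Reg genes was 0.91. It was 3.36 with normexp (offset 50) and loess, 2.79 with offset 10, and -0.19 with normexp values centred on the median. Leaving out either mouse gave -0.23 to 2.26. With normexp values centred on the median, Reg1, Reg2, Reg3a and Reg3d had means of -0.50, -0.19, -0.16 and -0.80. Without mouse 2 they were -0.042, -0.45, -0.79 and -0.23, and without mouse 1 they were 1.34, 2.26, 3.06 and 2.06. In mouse 1, Reg1 was at 4.17, 3.12 and 1.65 and Reg2 at 3.69, 2.70 and 1.28 with normexp (offset 50), normexp (offset 10) and no background correction, each with loess. Reg3b in mouse 1 was at -1.49 with normexp values centred on the median. The difference between the mice turned for Reg1 to -0.35 and -0.66, and for the exocrine median to -1.49 and -1.84, with normexp (offsets 50 and 10) and loess. Reg2, Reg3a, Reg3b and Reg3d were higher in mouse 2 under every alternative tried. Both wider filters, the deposited value table and the mean of a gene's probes could not change these values. The cause of these shifts was not tested.

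limma called 1120 genes higher and 802 lower, with 58.3% of calls higher. These counts were 377 and 36 (91.3%) with normexp (offset 50) and loess, 89 and 12 (88.1%) with offset 10, and 2167 and 2682 (44.7%) with normexp values centred on the median. The normexp fits, and the fit without background correction, took in 7296 genes against 4405, dim ones included. Their counts thus differ from the main ones in both processing and filter. On the deposited ratios the counts were 0 and 0 when 1 channel sufficed or no filter was set. There 2782 and 3344 genes had an unadjusted p under 0.05 in limma. With these wider filters on the deposited ratios no list had a called gene (0), and the first shifted the median of all genes from 0.07 to -0.16. Of the exocrine list, 11 higher and 3 lower became 24 and 0 with normexp (offset 50) and loess, 22 and 0 without background correction, and 2 and 13 with normexp values centred on the median, and the lower count was 0 with offset 10. With those centred values the lower counts were 3 for acinar factors, 2 for exostosins, 7 for STAT3 targets and 5 for other lectins. The higher counts there were 2 for cytokine receptors, 0 for JAK-STAT3 genes, 1 for STAT3 targets and 2 for other lectins. With normexp and loess no acinar factor, exostosin, cytokine receptor or STAT3 target was called (0), nor a JAK-STAT3 gene, except 1 lower with offset 50. Other lectins called higher fell to 0 with offset 10. Without background correction 6 other lectins were lower and 0 cytokine receptors higher. Amy2a5 turned to 1.44, 0.17 and 0.024 and Amy1 to 2.01, 0.57 and 0.48 with normexp (offset 50), normexp (offset 10) and no background correction. Jak2 turned to -0.26 and Cd209b to -0.62 with normexp values centred on the median. Leaving out a mouse leaves 1 array and no residual degree of freedom, so call counts have no such value. The dim Cy5 channel limits the genes that can be measured.

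Ranks of the difference also moved with the filter. Of the 20 largest differences 5 were Reg genes, but 2 when 1 channel sufficed and 0 without a filter, where Reg3a ranked 137.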

Other observations

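Outside the Reg family, 5 genes from the 12 with the largest rise from mouse 1 to mouse 2 among the 4405 measured are named here. They were chosen after their values were seen, and ranks 5, 9 and 11, held by BU557601, BC030336 and Slc25a11, differed by 2.44, 1.75 and 1.45. Cwc15, a spliceosome protein, differed by 2.52 on the log2 scale (rank 4), and Tor1aip2, a nuclear envelope protein, by 1.92 (rank 7). Rad17, a DNA damage checkpoint protein, differed by 1.87 (rank 8), Igfbp5, which binds insulin-like growth factors, by 1.50 (rank 10), and Pdk4, which inhibits pyruvate dehydrogenase, by 1.42 (rank 12).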
